A study of Homo sapiens with 8 samples.

Results

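Glycolysis and hypoxia genes were followed in A549 cells, an established human lung adenocarcinoma line. The group holds 35 genes, picked by symbol as members of these pathways, of 58302 genes in the files. All 35 were found, and all 35 were among the 17676 genes that passed a filter on low counts. They are 2 glucose transporters, 15 enzymes of glycolysis, 2 lactate dehydrogenase subunits and 2 lactate transporters, 4 regulators of glycolytic or pyruvate flux, 9 hypoxia targets and HIF1A.

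RNA was sequenced from 8 A549 cultures in 4 groups of 2. The cells carried a short hairpin RNA against AXL (AXL shRNA) or a control shRNA, or received 40 nM TP-0903, a drug that inhibits the AXL kinase, or were control cells. The design sets AXL shRNA against control shRNA and TP-0903 against control, which asks how loss of the AXL transcript and inhibition of the kinase each change gene expression. The hairpin sequences, the number of hairpins or clones, the duration of treatment and the treatment of the control cells were not stated in the sources used. Library names carry a number after the letter P, of unstated meaning: P15 and P3 for the hairpin groups, and P17 and P4 for TP-0903 and control. Wherever 2 values are given for a group, they are for P15 and then P3, or for P17 and then P4.

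In glycolysis, glucose enters through facilitative transporters, is phosphorylated and split, and is oxidised to pyruvate, with net production of ATP and NADH. Lactate dehydrogenase regenerates NAD+ by reducing pyruvate to lactate, which leaves the cell through monocarboxylate transporters, and many tumour cells run this route even with oxygen present. When oxygen is low, the HIF-1α protein escapes hydroxylation by prolyl hydroxylases, pairs with ARNT and binds hypoxia response elements in genes of this pathway. HIF-1α is set largely by protein stability, which RNA counts do not measure.

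Sequence around the start sites shows where the core letters of that element lie. RefSeq's table on GRCh38.p14, which spans 250 bases before to 50 bases after each start, held 60 promoters of 31 of the 35 genes, and SLC2A3, SLC16A1, BNIP3L and NDRG1 had no entry. The core ACGTG or GCGTG, searched on both strands, lay in 39 of these 60 promoters (65%), against 17012 of all 35116 promoters in the table (48.4%). ACGTG alone was in 38.3% of the genes' promoters against 21.4% of all, and GCGTG in 41.7% against 36.5%. ACGTG is contained in the E-box CACGTG, which was in 11.7% of the genes' promoters against 7.26% of all. At least 1 promoter of 28 genes held a core, and those of EGLN3, P4HA2 and PGAM1 held none. Promoters of 1 gene can overlap, so these shares describe the letters and were not tested. No window is shown for EGLN3, P4HA2 or PGAM1, which also rose with AXL shRNA. Windows that hold a core, from 6 genes with large or central changes, are printed 5′ to 3′ on the gene's strand, with each core on either strand in capitals.
HK2: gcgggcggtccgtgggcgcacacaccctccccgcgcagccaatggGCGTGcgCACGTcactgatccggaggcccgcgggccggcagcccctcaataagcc
LDHA: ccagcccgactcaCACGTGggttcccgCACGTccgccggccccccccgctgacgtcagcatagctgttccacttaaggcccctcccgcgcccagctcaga
CA9: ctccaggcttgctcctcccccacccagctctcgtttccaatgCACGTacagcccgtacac
PGK1: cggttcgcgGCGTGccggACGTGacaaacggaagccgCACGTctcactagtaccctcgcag
ENO1: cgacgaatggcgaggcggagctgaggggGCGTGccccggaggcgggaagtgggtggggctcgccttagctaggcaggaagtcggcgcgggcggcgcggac
P4HA1: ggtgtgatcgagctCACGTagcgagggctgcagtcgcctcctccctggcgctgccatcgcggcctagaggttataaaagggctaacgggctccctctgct
On GRCh38.p14 these windows are chr2:74834027-74834126 (plus strand), chr11:18394463-18394562 (plus), chr9:35673868-35673927 (plus), chrX:78104028-78104088 (plus), chr1:8878687-8878786 (minus) and chr10:73096867-73096966 (minus). They lie upstream of the annotated starts, within the last 100 bases except in PGK1, where the window runs from 220 to 160 bases before the start. PGK1 shows 3 cores, HK2 shows 2, and CA9, ENO1 and P4HA1 show 1 each. LDHA shows 3 by count, but 2 of them are the opposite strands of 1 E-box CACGTG.

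The libraries held 30067011 to 44217023 expected counts, and log2 CPM of the 2 libraries of a group correlated across genes at 0.979 to 0.983. CPM here are counts scaled to the library total after adjustment by trimmed mean of M values (TMM). AXL, the targeted gene, had 55.4 and 62.96 CPM with AXL shRNA and 85.1 and 139 CPM with control shRNA, lower in both libraries but not past the threshold (log2 fold change -0.92, SE 0.42, adjusted p = 0.120). It had 279.6 and 153 CPM with TP-0903 and 216 and 105 CPM in control cells (log2 fold change 0.43, SE 0.41, adjusted p = 0.544). Among 11 markers of A549 and other lung epithelial cells, none was at 0 in any library. Their summed level was 37546 and 33988 TPM (the authors' level per transcript length and depth) with AXL shRNA and 21981 and 18435 TPM with control shRNA. With TP-0903 it was 23475 and 28696 TPM, and in control cells 23247 and 27149 TPM. Of these 11 markers 6 rose, 1 fell and 4 did not pass with AXL shRNA, where 37.5% of all tested genes passed. TXNRD1 went against the sum, with 558 and 827 CPM with AXL shRNA and 2023 and 2534 CPM with control shRNA. The 6 fibroblast markers summed to 22.1 and 34.4 TPM with AXL shRNA, 8.70 and 7.28 TPM with control shRNA, 6.76 and 8.56 TPM with TP-0903 and 11.4 and 9.23 TPM in control cells, and 3 of the 4 tested rose with AXL shRNA. Leukocyte markers summed to at most 9.63 TPM, alveolar type II to 5.37 and endothelial to 3.59 TPM in any library. All 3 leukocyte markers tested passed with AXL shRNA. CD79A rose, with 3.05 and 1.31 CPM in AXL shRNA libraries and 0.338 and 0.209 CPM in control shRNA libraries, and ITGAM rose, with 7.004 and 7.66 CPM in AXL shRNA libraries and 1.26 and 2.01 CPM in control shRNA libraries. CD14 fell to 2.48 and 3.10 CPM with AXL shRNA, against 7.35 and 6.11 CPM with control shRNA. The 1 erythroid marker tested also rose with AXL shRNA. Of the fibroblast markers, COL3A1 had 29.9 and 65.4 CPM with AXL shRNA and 2.03 and 2.84 CPM with control shRNA. COL1A1 and LUM also rose, and PDGFRB did not pass. CDH5, the 1 endothelial marker tested, had 9.57 and 2.98 CPM with AXL shRNA and did not pass. Its control shRNA libraries had 2.55 and 0.209 CPM. COL1A2 had 0 and 0.02 TPM and DCN 0.09 and 0.02 TPM with AXL shRNA, and KDR was at 0 in every library. The part of these differences in the results below was not tested.

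As a group, the glycolytic transcripts were lowest with control shRNA. The 19 transporters and enzymes (SLC2A1 to LDHB) summed to 19396 and 19579 TPM with AXL shRNA and to 13115 and 13201 TPM with control shRNA. They summed to 18777 and 18786 TPM with TP-0903 and to 19571 and 19721 TPM in control cells. So AXL shRNA libraries lay close to the control cells, and control shRNA libraries lay below all 6 others. GAPDH, ENO1 and PKM supply much of this sum; without them the means were 8239 ± 3.97, 5350 ± 229, 8074 ± 178 and 8652 ± 189 TPM with AXL shRNA, with control shRNA, with TP-0903 and in control cells (SD, n = 2 each). In bulk RNA, fewer cells with a transcript and less of it per cell cannot be told apart.

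**Figure D1:**
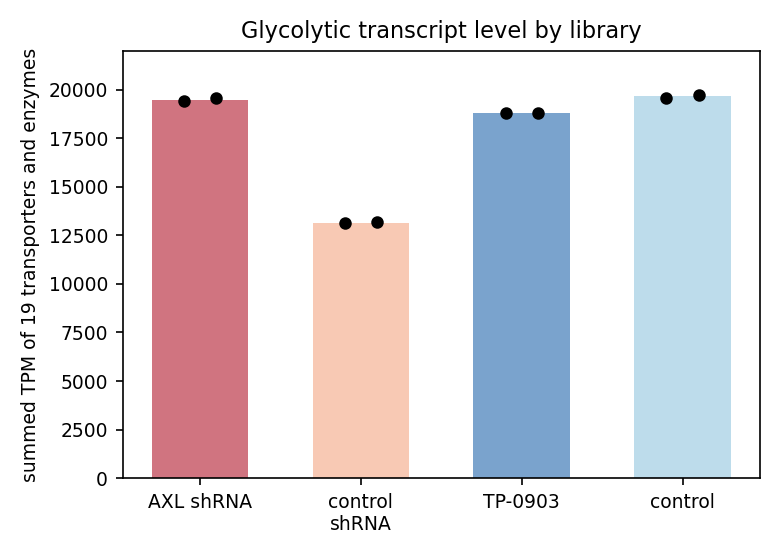
Summed TPM of the 19 glucose transporters, glycolytic enzymes and lactate dehydrogenase subunits (vertical axis) in the 4 groups; points are libraries and bars are means of 2. The control shRNA libraries, at 13115 and 13201 TPM, sit below the other 6.

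Relative to control shRNA, AXL shRNA was accompanied by higher counts along nearly the whole pathway. Of the 35 genes, 25 rose, 0 fell and 10 did not pass the threshold. HK2 and ALDOC each rose 5.92-fold, and the enzymes ALDOA, PGK1, PGAM1 and HK1 by 2.28-, 2.22-, 2.35- and 2.16-fold. Across all tested genes, 37.5% passed in either direction, 18.5% higher and 19.0% lower. The median log2 fold change of the 35 was 0.83, against -0.013 for all tested genes. At an unadjusted p under 0.05 edgeR had 26 above and 0 below. At an adjusted p under 0.05 DESeq2 called 26 higher and 0 lower, and limma on log2 TPM called 19 higher and 1 lower (MXI1). By these criteria, in the same order, 8451, 6798 and 6412 of all 17676 tested genes passed in either direction. TPM shifts the median of all genes to -0.15 and the share of higher calls among all called genes to 31.3%, against 49.4% with TMM; the median of the 35 was then 0.52.

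**Figure D2:**
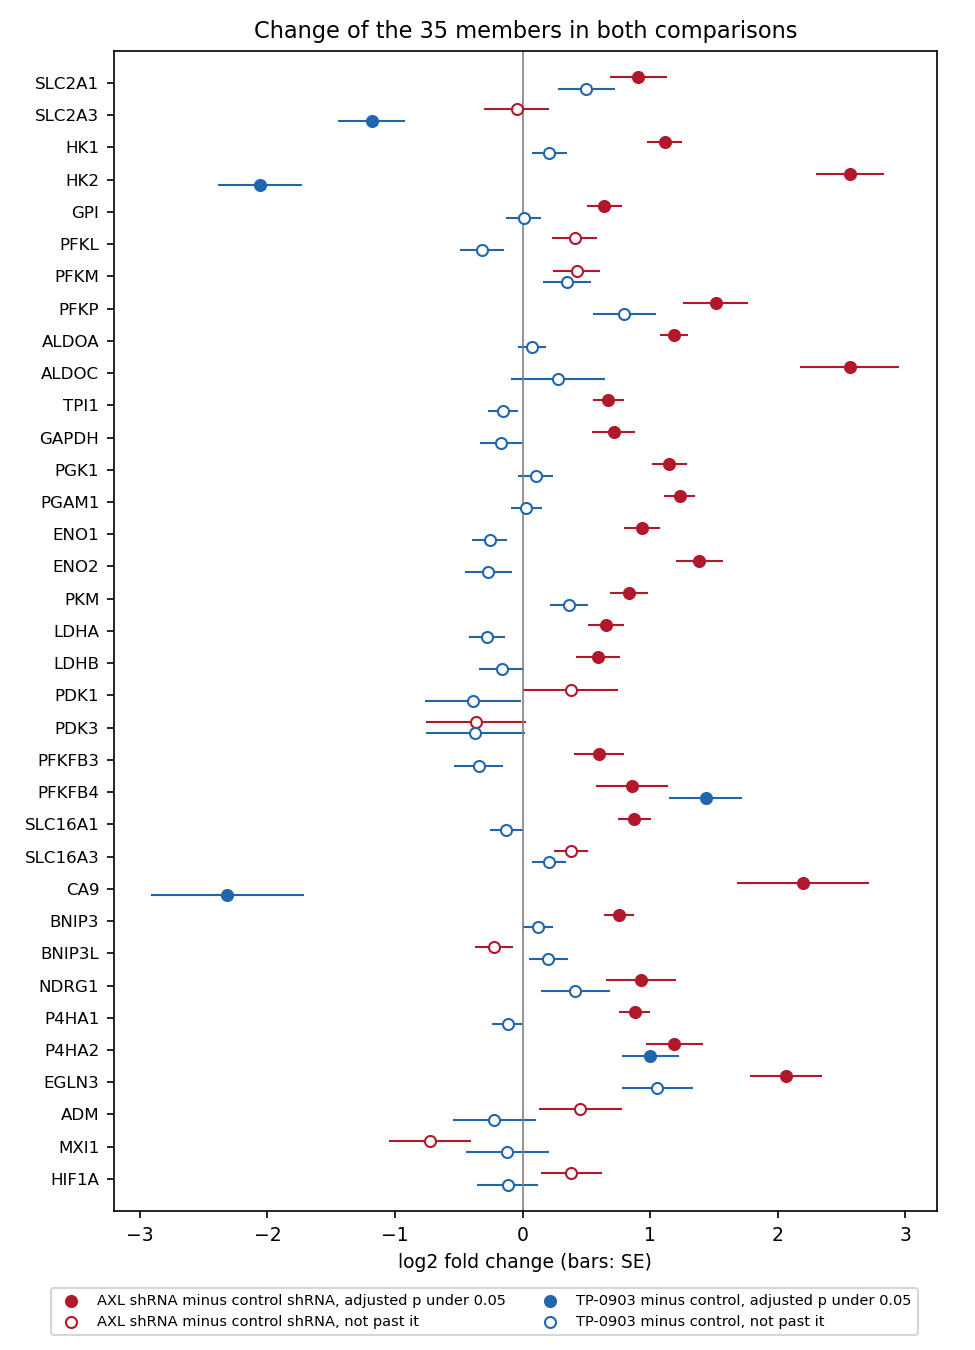
Log2 fold change with its SE for each of the 35 genes (rows), with AXL shRNA against control shRNA in red and TP-0903 against control in blue; filled points passed adjusted p under 0.05. Most red points lie right of 0 and most blue points near it, and HK2 and CA9 have filled points on both sides.

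At glucose uptake, SLC2A1, the basal glucose transporter GLUT1, had 462 and 319 CPM with AXL shRNA and 227 and 189 CPM with control shRNA, both AXL shRNA libraries above both others (log2 fold change 0.91, SE 0.23, adjusted p = 0.0181). This call was lost without AXL shRNA P15 or control shRNA P3, and its adjusted p ran from 5.26e-07 to 0.0970 over the alternatives. SLC2A3, the high-affinity GLUT3, had 36.6 and 46.2 CPM with AXL shRNA and 45.1 and 40.5 CPM with control shRNA, which overlap (log2 fold change -0.046, SE 0.26, adjusted p = 0.899). GLUT3 supplied 4.92% and 8.14% of the summed SLC2A1 and SLC2A3 TPM with AXL shRNA, against 10.3% and 11.2% with control shRNA.

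At the first step, hexokinase traps glucose as glucose 6-phosphate. HK1, its widely expressed form, had 143 and 163 CPM with AXL shRNA and 70.7 and 70.4 CPM with control shRNA (log2 fold change 1.11, SE 0.14, adjusted p = 0.00137). HK2, the inducible form that many tumours use, had 8.97 and 8.46 CPM with AXL shRNA and 1.29 and 1.65 CPM with control shRNA (log2 fold change 2.57, SE 0.27, adjusted p = 8.10e-04). The groups do not overlap for either gene. Between HK1 and HK2, HK1 remained by far the main form. HK2 made up 3.67% and 3.10% of HK1 plus HK2 TPM with AXL shRNA, against 1.04% and 1.41% with control shRNA. These shares leave out HKDC1, a further hexokinase gene. HKDC1 had 58.3 and 39.2 TPM with AXL shRNA and 49.7 and 44.3 TPM with control shRNA. HK1 had 51.2 and 59.6 TPM with AXL shRNA and 33.4 and 28.7 TPM with control shRNA. HKDC1 did not pass with AXL shRNA (log2 fold change 0.27, SE 0.20, adjusted p = 0.310). GPI, which makes fructose 6-phosphate, had 868 and 697 CPM with AXL shRNA and 515 and 489.6 CPM with control shRNA, and rose (0.64, SE 0.14, adjusted p = 0.0104), a call lost without AXL shRNA P15 or control shRNA P3 (adjusted p 5.86e-05 to 0.0570 over the alternatives).

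Phosphofructokinase commits the sugar to glycolysis. PFKP, the platelet-type subunit, had 561 and 677 CPM with AXL shRNA and 156 and 277 CPM with control shRNA (log2 fold change 1.51, SE 0.25, adjusted p = 0.00408). PFKL and PFKM, the liver and muscle types, did not pass, at log2 fold changes of 0.41 and 0.42 (adjusted p = 0.105 and 0.111). PFKM lies across the opposite strand of SENP1, whose counts reached 95.8% of those of PFKM, and the strand of the libraries is not stated. Aldolase splits the sugar into 3-carbon units, and ALDOA, the main form, had 1124 and 1111 CPM with AXL shRNA and 481 and 500.1 CPM with control shRNA (log2 fold change 1.19, SE 0.11, adjusted p = 5.90e-04). ALDOC, the brain form, was scarce, with 3.20 and 4.34 CPM with AXL shRNA and 0.431 and 0.838 CPM with control shRNA (log2 fold change 2.56, SE 0.39, adjusted p = 0.00281). All AXL shRNA libraries lay above all control shRNA libraries for these 3 called genes. TPI1, which interconverts the 3-carbon sugars, had 829.9 and 837 CPM with AXL shRNA and 488 and 557 CPM with control shRNA (log2 fold change 0.67, SE 0.12, adjusted p = 0.00490).

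All 6 genes of the lower steps, from GAPDH to PKM, rose. GAPDH, which yields NADH, had 5629 and 5848 CPM with AXL shRNA and 3072 and 3921 CPM with control shRNA (log2 fold change 0.71, SE 0.17, adjusted p = 0.0144), and lost its call without control shRNA P15 or AXL shRNA P3 (adjusted p 3.38e-05 to 0.105 over the alternatives). PGK1, the first ATP-yielding enzyme, had 1325 and 1058 CPM with AXL shRNA and 536 and 537 CPM with control shRNA (log2 fold change 1.15, SE 0.14, adjusted p = 0.00122). PGAM1, which moves the phosphate within phosphoglycerate, had 875 and 863 CPM with AXL shRNA and 374 and 366 CPM with control shRNA (log2 fold change 1.23, SE 0.12, adjusted p = 7.63e-04). The libraries of each group lay far closer to each other than to the other group for PGAM1. Enolase makes phosphoenolpyruvate; ENO1, its ubiquitous form, had 2162 and 2004 CPM with AXL shRNA and 1027 and 1148 CPM with control shRNA (log2 fold change 0.94, SE 0.14, adjusted p = 0.00266). ENO2, the neuronal form, had 128 and 113 CPM with AXL shRNA and 38.7 and 53.8 CPM with control shRNA (log2 fold change 1.38, SE 0.18, adjusted p = 0.00173). ENO2 remained the minor form, at 4.25% and 4.17% of ENO1 plus ENO2 TPM with AXL shRNA, against 2.77% and 3.596% with control shRNA. PKM, which yields pyruvate and ATP, had 5179 and 4966 CPM with AXL shRNA and 3015 and 2682 CPM with control shRNA (log2 fold change 0.83, SE 0.15, adjusted p = 0.00526).

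For lactate, LDHA, the subunit that favours lactate production, had 1613 and 1669 CPM with AXL shRNA and 1118 and 971 CPM with control shRNA (log2 fold change 0.65, SE 0.14, adjusted p = 0.0101). LDHB, the other subunit, had 1178 and 1219.9 CPM with AXL shRNA and 731 and 858 CPM with control shRNA (log2 fold change 0.59, SE 0.17, adjusted p = 0.0325). LDHA lost its call without control shRNA P3 (adjusted p 1.04e-05 to 0.0864 over the alternatives), and LDHB lost it without any 1 of the 4 hairpin libraries (0.00263 to 0.155). SLC16A1, the monocarboxylate transporter MCT1, had 168 and 200.1 CPM with AXL shRNA and 97.5 and 103 CPM with control shRNA (log2 fold change 0.88, SE 0.13, adjusted p = 0.00260). SLC16A3, the lactate exporter MCT4, had 76.5 and 74.5 CPM with AXL shRNA and 58.5 and 57.4 CPM with control shRNA, higher in both libraries but not past the threshold (log2 fold change 0.38, SE 0.13, adjusted p = 0.0612). Its opposite strand holds CSNK1D, with up to 461% of its counts.

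Of the 4 regulators, the 2 phosphofructokinase-2 genes rose and the 2 pyruvate dehydrogenase kinases did not pass. PFKFB3, which makes the fructose 2,6-bisphosphate that activates phosphofructokinase, had 396 and 443 CPM with AXL shRNA and 286 and 267 CPM with control shRNA (log2 fold change 0.60, SE 0.19, adjusted p = 0.0450). PFKFB4, a related enzyme, had 23.1 and 38.8 CPM with AXL shRNA and 15.7 and 18.4 CPM with control shRNA (log2 fold change 0.86, SE 0.28, adjusted p = 0.0472). Both calls were marginal: PFKFB3 kept its call only without TP-0903 P17 or without TP-0903 P4, and PFKFB4 only without AXL shRNA P15, with adjusted p of 0.00220 to 0.169 and 1.33e-04 to 0.594 over the alternatives. PDK1, which blocks pyruvate entry into the citric acid cycle, had 5.16 and 5.24 CPM with AXL shRNA and 3.81 and 4.19 CPM with control shRNA (log2 fold change 0.38, SE 0.37, adjusted p = 0.460). PDK3, its isoenzyme, had 2.72 and 5.17 CPM with AXL shRNA and 4.67 and 5.51 CPM with control shRNA (-0.36, SE 0.39, adjusted p = 0.496).

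Of the 9 hypoxia targets, 6 rose. CA9, a cell-surface carbonic anhydrase that is a standard hypoxia marker, had 12.1 and 5.46 CPM with AXL shRNA and 2.71 and 1.11 CPM with control shRNA, with AXL shRNA P15 highest (log2 fold change 2.20, SE 0.52, adjusted p = 0.0146). This call was lost without AXL shRNA P15 or control shRNA P3 (adjusted p 2.08e-08 to 0.0727 over the alternatives). EGLN3, an oxygen-sensing prolyl hydroxylase, had 59.8 and 47.00 CPM with AXL shRNA and 15.96 and 9.55 CPM with control shRNA (log2 fold change 2.07, SE 0.28, adjusted p = 0.00196). P4HA1, a catalytic subunit of collagen prolyl 4-hydroxylase, had 87.7 and 89.3 CPM with AXL shRNA and 51.7 and 44.5 CPM with control shRNA (log2 fold change 0.88, SE 0.12, adjusted p = 0.00189). P4HA2, its paralogue, had 86.5 and 112 CPM with AXL shRNA and 47.7 and 39.4 CPM with control shRNA (1.19, SE 0.22, adjusted p = 0.00630). BNIP3, a mitophagy receptor, had 99.2 and 93.8 CPM with AXL shRNA and 53.9 and 60.2 CPM with control shRNA (0.76, SE 0.12, adjusted p = 0.00292). The groups do not overlap for any of these 5 genes. NDRG1, a stress-responsive differentiation gene, had 48.3 and 81.1 CPM with AXL shRNA and 33.3 and 34.7 CPM with control shRNA (0.93, SE 0.27, adjusted p = 0.0332), and lost its call without control shRNA P15, control shRNA P3 or AXL shRNA P3 (adjusted p 1.15e-06 to 0.180 over the alternatives).

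The other 3 hypoxia targets and HIF1A did not pass. BNIP3L, a second mitophagy receptor, ADM, the vasodilator peptide adrenomedullin, and MXI1, an antagonist of MYC, had log2 fold changes of -0.23, 0.45 and -0.73 (adjusted p = 0.268, 0.303 and 0.116). HIF1A, the transcript of the oxygen-regulated subunit, had 1008 and 789 CPM with AXL shRNA and 849 and 529 CPM with control shRNA (log2 fold change 0.38, SE 0.24, adjusted p = 0.243). Its 2 control shRNA libraries differed widely. BNIP3L shares its locus with PNMA2 on the opposite strand, at up to 112% of its counts.

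**Figure D3:**
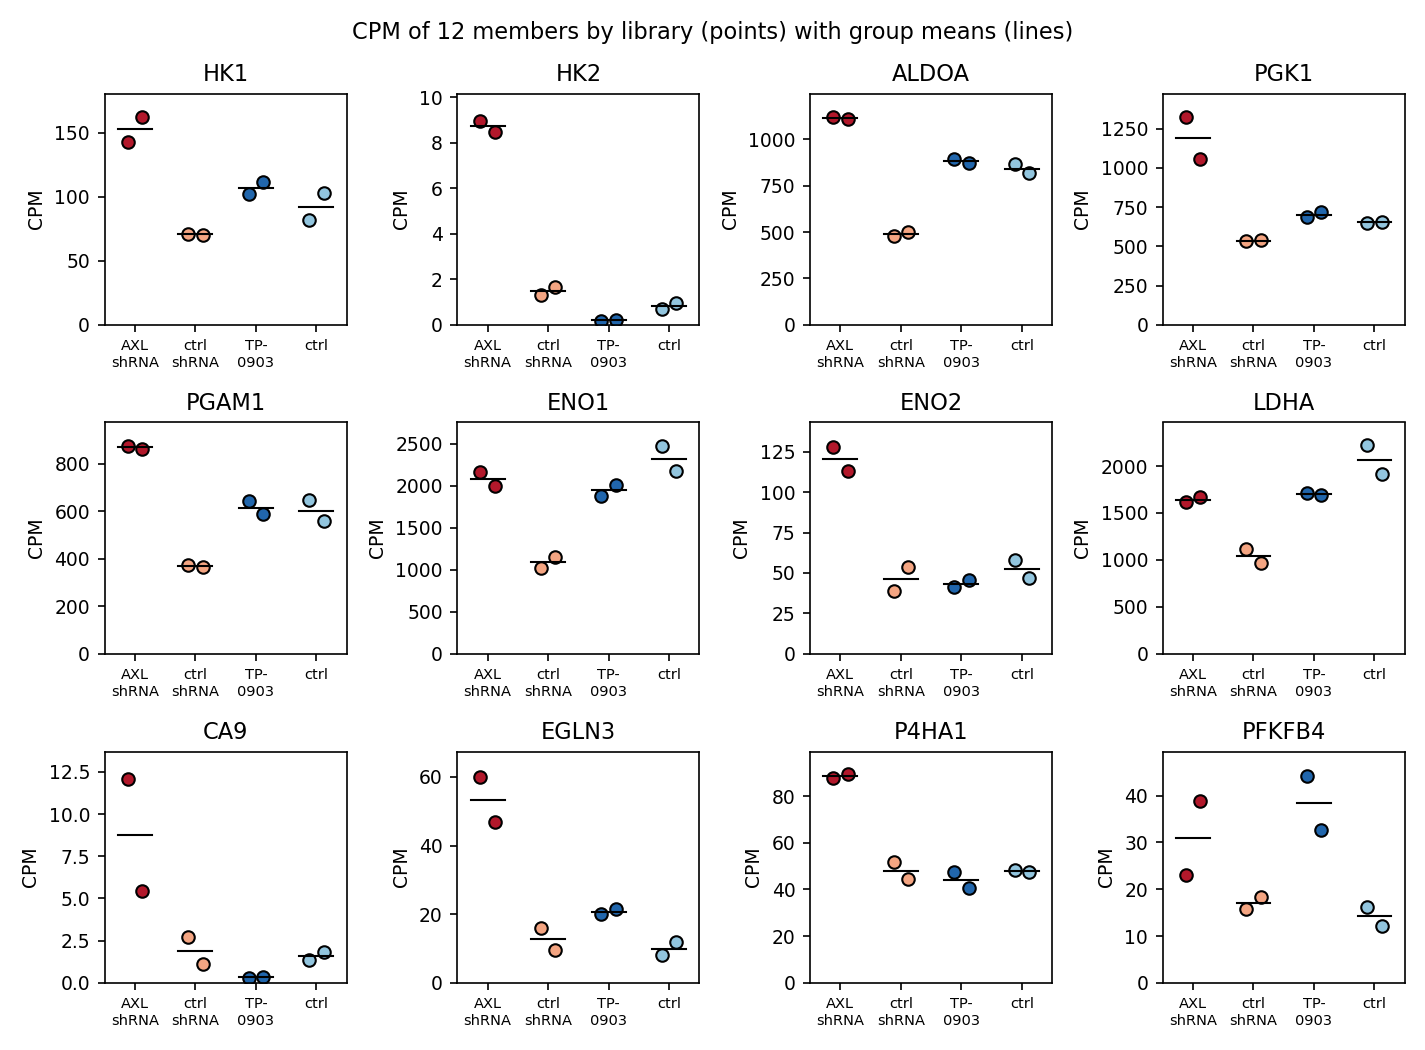
CPM (vertical axes, from 0) of 12 genes in each library (points), with group means (lines), for AXL shRNA, control shRNA, TP-0903 and control. In the control shRNA libraries ENO1 and LDHA lie below all 6 others, while HK2 is highest with AXL shRNA, at 8.97 and 8.46 CPM, and lowest with TP-0903, at 0.185 and 0.205 CPM.

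What the hairpin comparison rests on differed from gene to gene. Control shRNA was lower than control cells for 6 of the 35 genes and higher for 0 (9.15% of all tested genes passed, 3.06% higher and 6.09% lower): ALDOA, TPI1, PGAM1, ENO1, PKM and LDHA. At an unadjusted p under 0.05 edgeR had 4 above and 12 below. At an adjusted p under 0.05 DESeq2 called 3 higher and 8 lower, and limma on log2 TPM 1 higher and 5 lower. By these criteria, in the same order, 4873, 2746 and 1343 of all 17676 tested genes passed in either direction. LDHA, for example, had 1118 and 971 CPM with control shRNA and 2219 and 1911 CPM in control cells (log2 fold change -0.98, SE 0.14, adjusted p = 0.00766). ENO1 had 1027 and 1148 CPM with control shRNA and 2478 and 2173 CPM in control cells (log2 fold change -1.10, SE 0.14, adjusted p = 0.00496).

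Set against control cells in place of control shRNA, a comparison added after the data were seen, AXL shRNA was higher for 18 genes and lower for 0 by edgeR, with a median log2 fold change of 0.53; 36.8% of all tested genes passed, 17.3% higher and 19.5% lower. Without adjusting p, edgeR had 19 above and 1 below. With adjusted p, DESeq2 called 20 higher and 0 lower, and limma on log2 TPM 14 higher and 2 lower. By these criteria, in the same order, 8295, 6676 and 6166 of all 17676 tested genes passed in either direction. HK2 had a log2 fold change of 3.40 (SE 0.28, adjusted p = 3.58e-04), EGLN3 of 2.42 (SE 0.29, adjusted p = 0.00113) and ALDOA of 0.41 (SE 0.11, adjusted p = 0.0245). The others that passed were SLC2A1, HK1, PFKM, PFKP, ALDOC, PGK1, PGAM1, ENO2, PFKFB4, SLC16A1, CA9, BNIP3, P4HA1, P4HA2 and ADM. LDHA, ENO1 and TPI1 had values of -0.33, -0.16 and -0.12 and did not pass (adjusted p = 0.102, 0.404 and 0.449). GPI, GAPDH, PKM, LDHB, PFKFB3 and NDRG1, which rose against control shRNA, also did not pass here. Conversely, PFKM and ADM passed here but not against control shRNA. ADM had 120 and 74.1 CPM with AXL shRNA and 62.5 and 79.5 CPM with control shRNA, against 23.2 and 37.4 CPM in control cells. The comparisons share the AXL shRNA libraries, and hairpin and control cells also differ in P number, so that hairpin and number cannot be told apart.

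**Figure D4:**
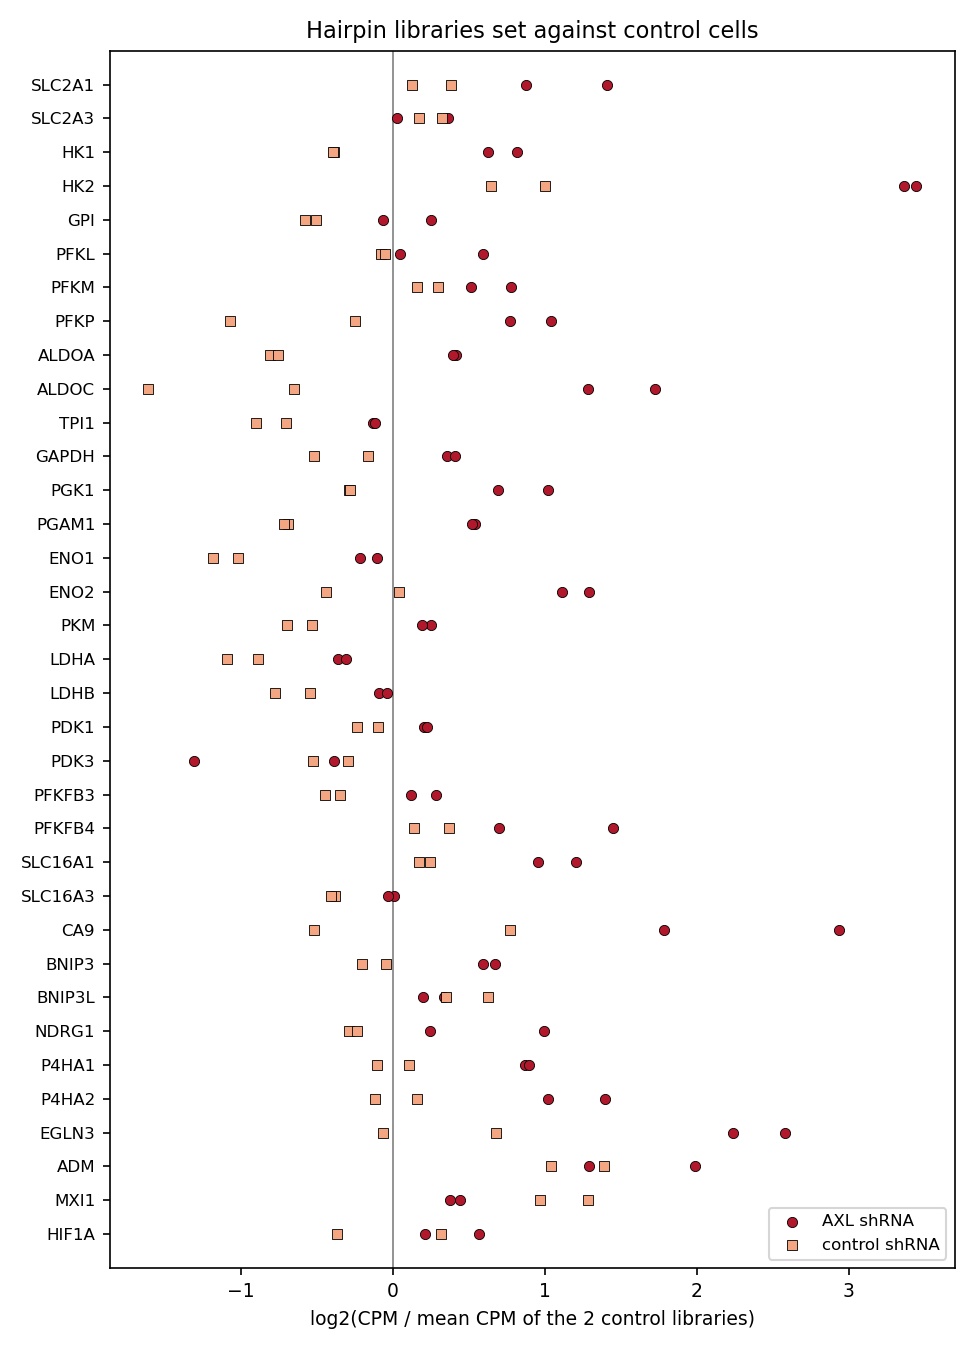
Log2 ratio of each hairpin library's CPM to the mean CPM of the 2 control libraries (horizontal axis) for the 35 genes (rows); circles are AXL shRNA and squares control shRNA. Squares of ENO1, LDHA and TPI1 lie left of 0 with circles between them and 0, whereas both circles of HK2, EGLN3 and ALDOC lie well right of it.

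With TP-0903 few of the 35 genes changed, and they did so in both directions. PFKFB4 rose 2.70-fold and P4HA2 2.003-fold, while HK2, CA9 and SLC2A3 fell to 0.240, 0.201 and 0.441 of their level in control cells. The other 30 did not pass in this fit. DESeq2 called 5 higher and 3 lower, edgeR with no filter on low counts called 5 higher, and limma on log2 TPM called 2 higher and 0 lower. Over all genes these settings called 2966 of 17676, 3515 of 31048 and 1715 of 17676 in either direction. In the main edgeR fit 11.3% of all tested genes passed, 4.90% higher and 6.35% lower, so 5 of 35 is a share near the background. The median log2 fold change of the 35 was -0.12, against -0.015 for all tested genes. None of these 5 calls was kept in all fits that left out 1 library, and without TP-0903 P17 or without control P4 no member was called in either direction.

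HK2 had 0.185 and 0.205 CPM with TP-0903 and 0.703 and 0.942 CPM in control cells, resting on 6 and 7 counts against 26 and 38 (log2 fold change -2.06, SE 0.33, adjusted p = 0.00954). AC019069.1, on the opposite strand of HK2, had 3 and 1 counts with TP-0903 and 8 and 8 in control cells; its part in the HK2 counts was not tested. The share of HK2 in HK1 plus HK2 TPM was 0.114% and 0.127% with TP-0903 and 0.495% and 0.782% in control cells. CA9 had 0.309 and 0.322 CPM with TP-0903 and 1.35 and 1.81 CPM in control cells (log2 fold change -2.31, SE 0.60, adjusted p = 0.0497), from 10 and 11 counts against 50 and 73. Both groups were low for both genes and did not overlap. ARHGEF39, which overlaps CA9 on the opposite strand, had 143 and 125 counts with TP-0903 and 828 and 722 in control cells, with a log2 fold change of -2.32 (adjusted p = 0.00121) with TP-0903 and of -0.16 (adjusted p = 0.587) with AXL shRNA; its part in the CA9 counts was not tested. SLC2A3 had 12.7 and 18.9 CPM with TP-0903 and 28.3 and 43.5 CPM in control cells (log2 fold change -1.18, SE 0.26, adjusted p = 0.0311). The HK2 call was lost without TP-0903 P17, TP-0903 P4 or control P4, the CA9 call without any 1 of the 4 libraries of the comparison, and the SLC2A3 call without TP-0903 P17, control P4, control shRNA P15 or control shRNA P3. Their adjusted p ran from 1.72e-04 to 0.208, 8.28e-07 to 0.303 and 3.89e-09 to 0.187 over the alternatives.

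PFKFB4 had 44.2 and 32.6 CPM with TP-0903 and 16.3 and 12.1 CPM in control cells (log2 fold change 1.44, SE 0.28, adjusted p = 0.0205). It made up 30.001% and 16.6% of PFKFB3 plus PFKFB4 TPM with TP-0903, against 8.11% and 5.95% in control cells. P4HA2 had 101 and 69.3 CPM with TP-0903 and 46.9 and 38.3 CPM in control cells (log2 fold change 1.002, SE 0.22, adjusted p = 0.0311). Both genes had both TP-0903 libraries above both control libraries, and both calls were lost without TP-0903 P17, control P17 or control P4 (adjusted p 1.27e-11 to 0.134 and 2.19e-08 to 0.183 over the alternatives).

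The smallest p values after these 5 belonged to EGLN3, PFKP and PKM, none past the threshold. EGLN3 had 19.97 and 21.5 CPM with TP-0903 and 8.17 and 11.8 CPM in control cells (log2 fold change 1.06, SE 0.28, adjusted p = 0.0535). PFKP had 594 and 547 CPM with TP-0903 and 332 and 325 CPM in control cells (log2 fold change 0.80, SE 0.25, adjusted p = 0.0850). PKM had 5986 and 5218 CPM with TP-0903 and 4479 and 4207 CPM in control cells (log2 fold change 0.37, SE 0.15, adjusted p = 0.156). All 3 were higher in both TP-0903 libraries. SLC2A1, at 283 and 208 CPM with TP-0903 and 188 and 159 CPM in control cells, gave a log2 fold change of 0.50 (adjusted p = 0.197).

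For the abundant enzymes no change with TP-0903 passed the threshold. HK1 had 102 and 111 CPM with TP-0903 and 81.8 and 103 CPM in control cells (log2 fold change 0.21, SE 0.14, adjusted p = 0.365). ALDOA had 897 and 876 CPM with TP-0903 and 866 and 817 CPM in control cells (log2 fold change 0.075, SE 0.11, adjusted p = 0.711). PGK1 had 686 and 716 CPM with TP-0903 and 650.3 and 655 CPM in control cells (log2 fold change 0.10, SE 0.14, adjusted p = 0.675). For HK1 the libraries of the groups overlap, and for ALDOA and PGK1 both TP-0903 libraries were above both control libraries. PGAM1 had 643 and 586 CPM with TP-0903 and 647 and 556 CPM in control cells (0.031, SE 0.12, adjusted p = 0.902). LDHA had 1717 and 1686 CPM with TP-0903 and 2219 and 1911 CPM in control cells (log2 fold change -0.28, SE 0.14, adjusted p = 0.239). ENO1 had 1879 and 2013 CPM with TP-0903 and 2478 and 2173 CPM in control cells (log2 fold change -0.26, SE 0.14, adjusted p = 0.275). Both of these last genes were lower in both TP-0903 libraries without passing.

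For the remaining genes that had risen with AXL shRNA, the TP-0903 values were as follows. ENO2 had 41.2 and 45.7 CPM with TP-0903 and 57.8 and 46.8 CPM in control cells (-0.27, adjusted p = 0.385). ALDOC had 1.57 and 1.61 CPM with TP-0903 and 1.14 and 1.49 CPM in control cells (0.28, adjusted p = 0.675). These brain and neuronal forms stayed minor. GAPDH had 3845 and 3974 CPM with TP-0903 and 4106 and 4678 CPM in control cells (-0.17, adjusted p = 0.563). TPI1 had 807 and 824 CPM with TP-0903 and 927 and 889 CPM in control cells (-0.15, adjusted p = 0.443). GPI had 730.3 and 735 CPM with TP-0903 and 754 and 703 CPM in control cells (0.0081, adjusted p = 0.979). None of these 5 enzymes passed the threshold. LDHB had 970.1 and 1263 CPM with TP-0903 and 1142 and 1361 CPM in control cells (-0.16, adjusted p = 0.590). SLC16A1 had 85.9 and 72.8 CPM with TP-0903 and 87.5 and 85.6 CPM in control cells (-0.13, adjusted p = 0.580). PFKFB3 had 227 and 346 CPM with TP-0903 and 373 and 354 CPM in control cells (-0.34, adjusted p = 0.294). All 3 had a log2 fold change below 0 with a p that missed the threshold.

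Among hypoxia targets, P4HA1 had 47.4 and 40.8 CPM with TP-0903 and 48.4 and 47.3 CPM in control cells (-0.12, adjusted p = 0.574). BNIP3 had 62.4 and 72.8 CPM with TP-0903 and 60.97 and 63.2 CPM in control cells (0.12, adjusted p = 0.542). NDRG1 had 47.8 and 60.7 CPM with TP-0903 and 33.3 and 48.1 CPM in control cells (0.41, adjusted p = 0.365). These 3 thus gave no call with the drug. PDK1 had 2.16 and 4.69 CPM with TP-0903 and 3.60 and 5.35 CPM in control cells (log2 fold change -0.39, SE 0.38, adjusted p = 0.556). SLC16A3 had 98.3 and 77.8 CPM with TP-0903 and 71.1 and 81.2 CPM in control cells (log2 fold change 0.21, SE 0.13, adjusted p = 0.356). HIF1A had 656 and 598 CPM with TP-0903 and 742 and 618 CPM in control cells (log2 fold change -0.12, SE 0.24, adjusted p = 0.794). The kinase, the exporter and the factor gave SEs of the same order as their changes. PFKL, PFKM, PDK3, BNIP3L, ADM and MXI1 had values of -0.32, 0.35, -0.37, 0.20, -0.22 and -0.12 and did not pass.

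Whether the hairpin and the drug acted unequally was tested as the TP-0903 effect minus the AXL shRNA effect, each against its own control. The difference was below 0 for 16 of the 35 genes and above 0 for 0, where 20.6% of all tested genes passed, 9.82% higher and 10.8% lower. With no adjustment of p, edgeR had 0 above and 21 below. With adjusted p, DESeq2 called 0 higher and 20 lower, and limma on log2 TPM 0 higher and 12 lower. By these criteria, in the same order, 6333, 4439 and 3473 of all 17676 tested genes passed in either direction. On the TPM scale the median of all genes in this contrast moved to 0.14 and 63.5% of called genes were higher, against 47.6% with TMM. Each effect is measured from its own control: of the 16, ALDOA, TPI1, PGAM1, ENO1 and LDHA are among those lower with control shRNA than in control cells.

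HK2 differed most, by -4.62 (SE 0.42, adjusted p = 0.00131), with a rise under the hairpin and a fall under the drug. CA9, the other gene called in opposite directions, differed by -4.51 (SE 0.79, adjusted p = 0.00896). Next by size were ALDOC at -2.29 (SE 0.53, adjusted p = 0.0234) and ENO2 at -1.65 (SE 0.26, adjusted p = 0.00602). In the lower pathway PGAM1 differed by -1.20, ENO1 by -1.19, PGK1 by -1.05 and GAPDH by -0.88 (adjusted p = 0.00483, 0.00726, 0.0107 and 0.0377). ALDOA differed by -1.11, HK1 by -0.90 and TPI1 by -0.83 (adjusted p = 0.00431, 0.0184 and 0.0147). SLC16A1, LDHA and PFKFB3 differed by -1.003, -0.93 and -0.94 (adjusted p = 0.0104, 0.0171 and 0.0487), and P4HA1 and BNIP3 by -0.997 and -0.64 (adjusted p = 0.00803 and 0.0332). PFKFB4 and P4HA2, higher under both agents, differed by 0.57 and -0.19 without passing (adjusted p = 0.344 and 0.710).

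Of these 16, HK2, ALDOA, PGK1, PGAM1, ENO1, ENO2, SLC16A1, CA9 and P4HA1 kept their call whichever library was left out. The count fell to 9 without TP-0903 P17 and to 10 without TP-0903 P4. BNIP3 lost its call without any 1 of the 8 libraries. GAPDH kept it only without control shRNA P3, PFKFB3 only without TP-0903 P4, HK1 only without AXL shRNA P15 or control P17, and ALDOC only without AXL shRNA P15 or control shRNA P3. LDHA kept it only without control shRNA P15, AXL shRNA P15 or control P4, and TPI1 lost it without control P17, TP-0903 P17 or TP-0903 P4. Adjusted p over the alternatives ran from 0.00984 to 0.117 for BNIP3, 8.97e-04 to 0.144 for GAPDH, 7.49e-04 to 0.135 for PFKFB3, 7.58e-04 to 0.0711 for HK1, 0.00118 to 0.0766 for ALDOC, 3.06e-05 to 0.0633 for LDHA and 2.20e-05 to 0.0604 for TPI1.

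Related genes outside the 35 are read against the 37.5% of all tested genes that passed with AXL shRNA (18.5% higher, 19.0% lower). Of 40 further hypoxia-associated genes 17 rose, 8 fell and 15 did not pass, with a median of 0.20. VEGFA, the angiogenic factor and a standard HIF target, was lower, at 31.97 and 28.98 CPM with AXL shRNA and 98.9 and 91.2 CPM with control shRNA (log2 fold change -1.64, SE 0.19, adjusted p = 0.00118). Control shRNA was itself above control cells, which had 39.6 and 60.8 CPM (log2 fold change 0.92, SE 0.19, adjusted p = 0.0300), and AXL shRNA against control cells gave a log2 fold change of -0.72 (SE 0.19, adjusted p = 0.0233). PLOD1 and PLOD2, lysyl hydroxylases of collagen, and KDM3A, a histone demethylase, rose by 1.18, 1.67 and 1.20 on the log2 scale (adjusted p = 0.00122, 0.00145 and 0.00173). Of 11 tested genes of HIF control 4 rose and 2 fell, among them HIF1AN, the asparagine hydroxylase that inhibits HIF, which rose by 0.92 (adjusted p = 0.00134). Of 14 other glycolytic genes 4 rose and 2 fell: the transporter SLC2A6 rose by 1.26, the muscle enolase ENO3 by 1.62 and BPGM by 1.12, and the glucose 6-phosphatase G6PC3 fell by 0.80 on the log2 scale (adjusted p = 0.00132, 0.00333, 0.00764 and 0.00788). Of 13 genes of pyruvate fate 2 rose and 2 fell, a share near that of all genes, and limma on log2 TPM called 0 higher and 5 lower. PCK2, which turns oxaloacetate into phosphoenolpyruvate in mitochondria, fell by 3.13 on the log2 scale. PDK4, a further pyruvate dehydrogenase kinase, fell by 2.27 (adjusted p = 0.00128 for PCK2 and 0.0325 for PDK4). PCK2 had 9.51 and 10.1 CPM with AXL shRNA, 80.6 and 90.6 CPM with control shRNA, and 27.9 and 62.2 CPM in control cells. PDK4 had 20.5 and 17.8, 74.8 and 109, and 35.5 and 96.8 CPM in these groups. No gene of pyruvate fate rose by more than 0.59. Of 7 pentose phosphate genes 3 rose and 0 fell, and RPIA rose by 1.52 (adjusted p = 0.00945). DESeq2 called 1 of the 7 lower, limma 2 lower, and edgeR gave 1 lower at an unadjusted p under 0.05. By these criteria, in the same order, 6798, 6412 and 8451 of all 17676 tested genes passed in either direction.

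With TP-0903, where 11.3% of all tested genes passed (4.90% higher, 6.35% lower), 7 of the 40 further hypoxia-associated genes rose and 1 fell. PLOD1 rose by 0.85 and PPP1R3C, a glycogen-targeting phosphatase subunit, by 1.23, GBE1, the glycogen branching enzyme, rose by 1.10, and ZNF395 had a log2 fold change of -1.27 (adjusted p = 0.0108, 0.0138, 0.00439 and 0.0138). VEGFA, at 49.4 and 48.6 CPM with TP-0903 and 39.6 and 60.8 CPM in control cells, did not pass (adjusted p = 0.934). TIGAR, which lowers fructose 2,6-bisphosphate, and SLC2A6 were the 2 of 14 other glycolytic genes that rose, by 1.35 and 0.96 (adjusted p = 0.00317 and 0.00927). PCK2 was the 1 of 13 pyruvate genes that passed, a share near that of all genes, and it fell by 2.16 on the log2 scale (adjusted p = 0.0120). For HIF control and the pentose phosphate pathway edgeR and DESeq2 each called 0. At an unadjusted p under 0.05 edgeR gave 6 lower of 11 and 0 of 7, where 5038 of all 17676 tested genes passed in either direction.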

How the data were processed

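Total RNA from 8 A549 cultures, described in the labels' protocols as biological replicates, was sequenced from Nextera XT libraries, for which no strand is stated. Reads were processed with STAR 2.5.3a and RSEM on GRCh38, per the submitters' processing notes; no source used here names the annotation. Expected counts, as deposited, are reads that RSEM assigned to each gene and carry no normalization. TPM as deposited come from the same RSEM output per the file headers, are relative to transcript length and depth, and served for levels between genes.

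Expected counts were rounded, genes filtered with filterByExpr by group, and all 8 libraries fitted in edgeR 4.0.16 (quasi-likelihood, TMM scaling, 1 term per group, R 4.3.3), which shares the spread over the groups. Tests were two-sided, with Benjamini-Hochberg adjustment over all 17676 genes and a threshold of 0.05; every adjusted p in the text is from this test unless another tool is named. An SE was obtained by dividing the log2 fold change by the root of its F statistic. With 2 libraries a group, p-values are set against the spread between cultures that also differ in P number, so culture and number cannot be told apart in it. The fit moderates this spread across genes. Counting error was exceeded at 50.2% to 56.4% of genes when both libraries of a group were compared. Totals were 30067011 to 44217023 counts.

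The 35 genes and all lists were chosen with earlier results of these data known. All 35 are named. Values per library are given for genes past the threshold in either comparison and for SLC2A1, HK1, HK2, PFKFB3, PFKFB4, LDHA, PDK1, SLC16A3, CA9 and HIF1A; of other lists, up to 4 called genes with the smallest p per comparison could be named. VEGFA with TP-0903, HKDC1, ADM, PDK3, and SLC2A3 with AXL shRNA are given beside these. Alternatives were scaling, filter, DESeq2 1.42.0, limma 3.58.1 on log2(TPM + 1), the P number as a block, the 4 libraries of a comparison, pseudogene copies added (at most 1.30% of a gene's counts) and each library left out. The fit was tested on simulated data. Promoters are from RefSeq; comparison of protein sequences was not analysed here. A marker gene, and the summed level of its list, are not reported here.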

Additional observations from a re-analysis of the deposited data

Results flagged for a closer look

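For 16 genes the TP-0903 effect and the AXL shRNA effect, each against its own control, differed by a test of the difference itself in edgeR's fit. The difference, drug minus hairpin on the log2 scale, was -4.62 for HK2 and -4.51 for CA9, whose calls went in opposite directions. Among other enzymes of the upper pathway it was -0.90 for HK1, -1.11 for ALDOA, -2.29 for ALDOC and -0.83 for TPI1. In the lower pathway it was -0.88 for GAPDH, -1.05 for PGK1, -1.20 for PGAM1, -1.19 for ENO1 and -1.65 for ENO2. For lactate production, lactate transport and phosphofructokinase control it was -0.93 for LDHA, -1.003 for SLC16A1 and -0.94 for PFKFB3. For the hypoxia targets P4HA1 and BNIP3 it was -0.997 and -0.64. No group had the 4 samples a check for outlying libraries needs.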

How the results depend on the processing

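With 2 libraries a group, the spread is borrowed from the whole fit, and genes at a few counts, such as HK2 and CA9 with TP-0903, are limited by depth. With a library left out, the lone library of its group is assumed to vary like the other groups. The cause of the changes below was not tested. The AXL shRNA rise kept its direction for all 25 genes under each alternative run with control shRNA.

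Members called lower with AXL shRNA were 1 (MXI1) with no filter, with the replicate block, with the 4 libraries of the comparison and in limma. Members called higher with AXL shRNA were 17 to 25 with a library left out, and those called lower 0. Members higher with TP-0903 were 5 with no filter, 6 with the replicate block, 4 with 4 libraries and 5 in DESeq2, and 0 to 4 with a library left out. Members lower with TP-0903 were 0 in limma and 0 to 3 with a library left out. Members lower in the difference were 9 to 13 with a library left out, and 1 was higher with the replicate block.

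Whether the P number pairs libraries could not be settled. Deviations of libraries with 1 number correlated at 0.444 (hairpins) and 0.450 (drug), against 0.171 to 0.309 between groups that share no number, with 2 pairs a comparison. With the replicate block, 29 members were higher and 1 lower with AXL shRNA, 6 higher and 3 lower with TP-0903, and 1 higher and 23 lower in the difference. Over all genes the block called 9138 with AXL shRNA, against 6627 without it, and 4647 against 1989 with TP-0903. In the difference the block called 6530 against 3645, and with no filter TP-0903 gave 3515. With a library left out, all-gene calls were 4408 to 6105 with AXL shRNA (6627 with all libraries), 489 to 1727 with TP-0903 and 1855 to 2670 in the difference.

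The summed glycolytic level moved to 8239, 5350, 8074 and 8652 TPM (AXL shRNA, control shRNA, TP-0903, control) without GAPDH, ENO1 and PKM. Directions that reversed were all of changes that had not passed. With limma they were PFKL with TP-0903 (0.088) and, in the difference, PDK3 (0.29), SLC16A3 (0.042) and P4HA2 (0.077). PDK3 also reversed there with no filter (0.021) and with the replicate block (0.015). With a library left out, log2 fold changes with AXL shRNA ran from -0.23 to 0.11 for SLC2A3 and from -0.91 to 0.017 for PDK3. With TP-0903 they ran from -0.022 to 0.070 for GPI, -0.055 to 0.15 for PGAM1, -0.35 to 0.014 for LDHB, -1.03 to 0.067 for PDK1, -0.25 to 0.0057 for SLC16A1, -0.23 to 0.0035 for P4HA1, -0.53 to 0.19 for ADM, -0.63 to 0.27 for MXI1 and -0.22 to 0.030 for HIF1A. In the difference they ran from -0.26 to 0.18 for PFKM, -0.45 to 0.54 for PDK3, -0.34 to 0.0064 for SLC16A3 and -0.48 to 0.081 for P4HA2.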
